A study of Mus musculus with 8 samples.

Results

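Injured dorsal root ganglia of mice bred to lose non-muscle myosin IIA and IIB in sensory neurons were compared with injured ganglia of mice without the deleting Cre. The comparison sets the 2 dKO SNI libraries against the 2 WT SNI libraries and covers every gene with at least 1 FPKM in 2 or more of the 8 libraries of the study, which is 12884 of 21878 gene symbols. FPKM, the deposited unit, are fragments scaled to transcript length and library total. In dKO SNI, C57BL/6 mice with floxed Myh9 and Myh10 also carried Advillin-Cre and had the sciatic nerve cut. In WT SNI, mice with the same floxed alleles but no Cre had the same axotomy. The other groups, dKO sham and WT sham, had the same genotypes and a sham operation. Ganglia of lumbar levels 4 and 5 were taken 3 days after surgery, and each of the 4 groups has 2 libraries. SNI is the sample names' word for the axotomy. No age or sex is given, and it is not stated whether replicate libraries are from different mice, so the p-values rest on a library-to-library spread that may be technical. The Cre is driven by Advillin, a gene of sensory neurons, so the glia, vessels, fibroblasts and immune cells of a ganglion are not its intended targets; bulk values do not show in which cells the genes were lost.

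Non-muscle myosin II is the motor that pulls on actin filaments in cells other than muscle. It is built from heavy chains (Myh9, Myh10 and Myh14 encode those of forms IIA, IIB and IIC) and pairs of light chains, and in a growth cone it draws actin rearward and restrains the advance of microtubules. Sensory neurons of the dorsal root ganglion answer a cut of the peripheral axon by switching on a growth programme and turning down transmission genes, while monocytes and neutrophils enter the ganglion.

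Some features of the libraries bear on every result. The Y-linked genes were detected in both dKO SNI libraries and were at or near 0 in both WT SNI libraries. Eif2s3y measured 17.8 and 16.6 FPKM in the dKO SNI pair, against 0 and 0 FPKM in the WT SNI pair. Ddx3y measured 13.6 and 13.9 FPKM in the dKO SNI pair, against 0 and 0 FPKM in the WT SNI pair. The sham groups had the opposite arrangement, so genotype and Y-linked transcripts cannot be told apart in either contrast. Replicates correlated at a Pearson r of 0.984 in dKO SNI and 0.986 in WT SNI over the 12884 genes, on the log2(FPKM + 1) scale. The libraries did not sit evenly: dKO SNI 1 and WT SNI 2 correlated at 0.975, while dKO SNI 2 and WT SNI 1 correlated at 0.927. WT sham 2 held skeletal muscle transcripts, such as Ckm at 138 FPKM against at most 3.17 FPKM elsewhere. None of the 9 muscle markers tested was called between the injured groups (0 at an unadjusted p under 0.05, limma). WT sham 2 entered that fit and widened the spread of these genes, so the test cannot show that the injured groups were alike. With the injured libraries alone 0 were called. The summed level of the muscle list overlapped, at 81.2 and 68.7 FPKM in the dKO SNI pair, against 65.1 and 91.3 FPKM in the WT SNI pair. FPKM totals ran from 278310 to 339920, and read totals are unknown, so counting error could not be estimated. The ganglion markers were present in all 4 injured libraries, with Tubb3, a neuronal tubulin, at 1255 and 859 FPKM in the dKO SNI pair, against 2085 and 1669 FPKM in the WT SNI pair, and Fabp7, a fatty acid binding protein of satellite glia, at 492 and 528 FPKM in the dKO SNI pair, against 285 and 369 FPKM in the WT SNI pair.

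The targeted genes were read first. Myh10, the heavy chain of myosin IIB, measured 5.31 and 4.12 FPKM in the dKO SNI pair, against 13.8 and 10.4 FPKM in the WT SNI pair (limma, log2 change -1.19 ± 0.18, adjusted p = 0.00929). Myh9, the heavy chain of myosin IIA, measured 24.6 and 24.4 FPKM in the dKO SNI pair, against 30.8 and 29.7 FPKM in the WT SNI pair, and that difference did not pass the test (log2 change -0.29 ± 0.13, adjusted p = 0.113). Both dKO SNI libraries lay below both WT SNI libraries for each gene, though the groups did not overlap in 68.3% of all genes tested. After sham surgery the sizes were the other way round: Myh9 measured 10.9 and 12.1 FPKM in the dKO sham pair, against 27.2 and 31.6 FPKM in the WT sham pair. Myh10 measured 12.2 and 14.4 FPKM in the dKO sham pair, against 18.1 and 23.5 FPKM in the WT sham pair. Whether the Myh9 difference depended on the surgery did not pass the test of that difference (limma interaction 0.98 ± 0.18, adjusted p = 0.193). Myh14, the heavy chain of myosin IIC, which was not targeted, measured 5.1 and 3.64 FPKM in the dKO SNI pair, against 8.29 and 5.95 FPKM in the WT SNI pair (log2 change -0.60 ± 0.19, adjusted p = 0.0481). The Myh14 call held in 8 of 19 alternatives and was lost, among others, with a replicate block, with the injured libraries alone and when either sham group lost a library. Avil itself, an actin-binding protein of sensory neurons, measured 44.1 and 34.5 FPKM in the dKO SNI pair, against 143 and 112 FPKM in the WT SNI pair (log2 change -1.67 ± 0.17, adjusted p = 0.00427). Without axotomy Avil was lower too, at 75.3 and 80.0 FPKM in the dKO sham pair, against 172 and 180 FPKM in the WT sham pair (limma, log2 change -1.17 ± 0.17, adjusted p = 0.0380). Myh10 lies at chr11:68691559-68816632 on the plus strand and Avil at chr10:127000709-127020994 on the plus strand of GRCm38. Each value covers a whole gene, including exons outside the floxed part. In bulk tissue, fewer cells of a type and less RNA per cell cannot be told apart.

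In dKO SNI, called neuronal genes of the lists described here were mostly lower than in WT SNI, and called immune, ribosomal and dividing-cell genes were mostly higher. A gene is called here when its two-sided limma test on log2(FPKM + 1) has a Benjamini-Hochberg adjusted p under 0.05. By that rule 1374 genes were higher (10.7% of those tested) and 1732 were lower (13.4%), and the median change over all genes was -0.03. The counts of every list below are to be read against these shares, as a description. The lists were chosen with earlier results of these data known, so the shares are no test of them. Requiring in addition a log2 difference of 1 or more, 363 were higher (2.82%) and 185 were lower (1.44%). The 2 libraries of each group lay apart in all 3106 called genes, and in 8797 of all genes tested (68.3%). A lack of overlap is therefore no further evidence for a called gene. After sham surgery the same genotype contrast called 12 genes higher (0.0931%) and 8 lower (0.0621%).

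These calls lean on 2 of the 4 injured libraries. The count fell to 11 genes without dKO SNI 2 and to 10 without WT SNI 1, while it was 3063 without dKO SNI 1 and 2704 without WT SNI 2. The number of genes at an unadjusted p under 0.05 was 3046 without dKO SNI 2 and 3171 without WT SNI 1, against 5217 with all libraries. A change of at least 1 was kept in each of those 4 fits by 153 higher and 35 lower genes. Since the groups of every called gene lie apart, leaving out 1 library cannot turn its sign. The genes called in all 4 fits were 8 in number, namely the 4 Y-linked genes, Avil, the predicted gene Gm38495, and Prtn3 and Mpo, which encode proteinase 3 and myeloperoxidase of primary neutrophil granules. In the gene lists described here, members still called without dKO SNI 2 were the 4 Y-linked genes, 3 of the primary granule list and 1 pan-neuronal gene, and without WT SNI 1 the 4 Y-linked genes, 2 of the primary granule list, 1 pan-neuronal gene and 1 cell cycle gene. The pan-neuronal gene was Avil in both fits, the gene that drives the Cre, and no other pan-neuronal marker kept its call. Because the calls lean on these libraries, the median change of the main lists is given also without dKO SNI 2 and without WT SNI 1.

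The 2 largest named falls were in markers of sensory neuron classes. Sst, the precursor of the peptide somatostatin in itch-sensing neurons, measured 6.79 and 4.48 FPKM in the dKO SNI pair, against 24.3 and 25.8 FPKM in the WT SNI pair (log2 change -2.0 ± 0.30, adjusted p = 0.00929). Mrgprd, a receptor that marks a class of non-peptidergic nociceptors, measured 4.35 and 1.88 FPKM in the dKO SNI pair, against 13.6 and 13.6 FPKM in the WT SNI pair (log2 change -1.89 ± 0.26, adjusted p = 0.00929). Among abundant genes Nefh, the heavy neurofilament chain of large myelinated neurons, measured 124 and 70.7 FPKM in the dKO SNI pair, against 359 and 199 FPKM in the WT SNI pair (log2 change -1.50 ± 0.33, adjusted p = 0.0156). Nefm, the medium chain, measured 216 and 133 FPKM in the dKO SNI pair, against 599 and 344 FPKM in the WT SNI pair. Both neurofilament genes were lower in replicate 2 than in replicate 1 of each injured group, as were most falls: of the 185 genes lower by at least 1, 176 were lower in dKO SNI 2 than in dKO SNI 1 and 169 were lower in WT SNI 2 than in WT SNI 1. The other large falls included Map1b, a microtubule-associated protein of growing axons (-1.41 ± 0.26), Tubb4a, a neuronal tubulin (-1.44 ± 0.30), Cdk5r2, an activator of the neuronal kinase Cdk5 (-1.57 ± 0.24), and Eef1a2, an elongation factor of neurons and muscle (-1.27 ± 0.28).

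**Figure D1:**
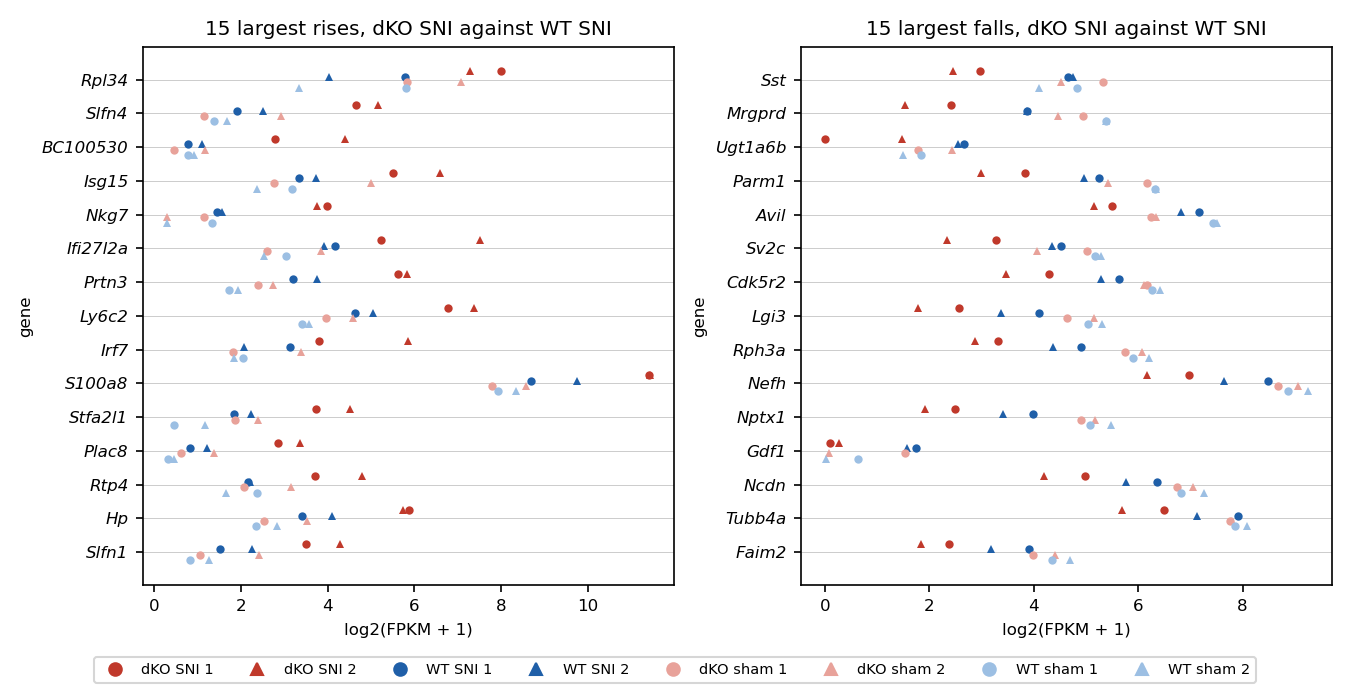
The 15 largest rises (left) and 15 largest falls (right) among called genes whose injured groups do not overlap, with log2(FPKM + 1) on the horizontal axis and 1 point for each of the 8 libraries (circle, replicate 1; triangle, replicate 2). Red points of dKO SNI lie right of the blue points of WT SNI on the left panel and left of them on the right panel, for example Sst at 6.79 and 4.48 FPKM in the dKO SNI pair, against 24.3 and 25.8 FPKM in the WT SNI pair.

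Genes of synaptic vesicles and transmitter release fell as a group. Of 30 tested, 23 were lower and 0 higher, beside 13.4% lower over all genes, and the median change was -1.04 (-0.76 without dKO SNI 2 and -0.90 without WT SNI 1). Rph3a, rabphilin, a Rab3 effector on synaptic vesicles, measured 8.96 and 6.28 FPKM in the dKO SNI pair, against 28.8 and 19.7 FPKM in the WT SNI pair (log2 change -1.54 ± 0.22, adjusted p = 0.00929). Rab3a itself, the small GTPase of vesicles, measured 41.8 and 23.2 FPKM in the dKO SNI pair, against 99.8 and 65.9 FPKM in the WT SNI pair. The 4 libraries did not overlap for either gene. Sv2c, a vesicle glycoprotein, measured 8.69 and 4.07 FPKM in the dKO SNI pair, against 22.1 and 19.5 FPKM in the WT SNI pair. Syn1, synapsin I, which tethers vesicles to actin, measured 36.9 and 22 FPKM in the dKO SNI pair, against 92.4 and 58 FPKM in the WT SNI pair. Cplx2, a complexin, changed by -1.26 ± 0.20, the calcium sensor Syt1 by -1.03 ± 0.18 and Sv2b by -1.0 ± 0.17. The summed level of the 30 genes was 926 and 637 FPKM in the dKO SNI pair, against 1741 and 1352 FPKM in the WT SNI pair. The members that did not pass included Stx1a, a syntaxin of the plasma membrane (0.07, 95% interval -0.25 to 0.38), and Rims2, an active-zone scaffold (-0.14, 95% interval -0.42 to 0.14).

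Ion channels and receptors of sensory neurons also fell. Of 40 tested, 25 were lower and 0 higher, beside 13.4% lower over all genes. The median was -0.65 (-0.49 without dKO SNI 2 and -0.61 without WT SNI 1). Scn1a, a sodium channel of mechanosensory neurons, measured 3.13 and 2.4 FPKM in the dKO SNI pair, against 6.29 and 5.78 FPKM in the WT SNI pair (log2 change -0.91 ± 0.14, adjusted p = 0.00929). Grik1, a kainate receptor subunit, measured 9.57 and 6.12 FPKM in the dKO SNI pair, against 19 and 17.2 FPKM in the WT SNI pair (log2 change -1.14 ± 0.19, adjusted p = 0.0104). For these 2 genes both dKO SNI libraries lay below both WT SNI libraries. The nociceptor sodium channel Scn10a measured 29.3 and 20.2 FPKM in the dKO SNI pair, against 47.5 and 44.6 FPKM in the WT SNI pair (log2 change -0.89 ± 0.18, adjusted p = 0.0124), and the cold channel Trpm8 measured 2.26 and 0.896 FPKM in the dKO SNI pair, against 5.38 and 4.86 FPKM in the WT SNI pair (log2 change -1.30 ± 0.24, adjusted p = 0.0113). The range over the list ran from -1.40 for Scn4b, a sodium channel beta subunit, to 0.03 for Kcnt1, a sodium-activated potassium channel. Sstr2, a somatostatin receptor, measured 0.318 and 0.395 FPKM in the dKO SNI pair, against 0.306 and 0.43 FPKM in the WT SNI pair (-0.01, 95% interval -0.33 to 0.31).

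Some markers of sensory neuron classes fell. Of 32 tested, 13 were lower and 1 higher, beside 13.4% and 10.7% of all genes. The median was -0.47 (-0.30 without dKO SNI 2 and -0.58 without WT SNI 1). Beside Sst, Mrgprd and Nefh, the falls included Lpar3 (-1.40 ± 0.26) and Lpar5 (-0.87 ± 0.13), lysophosphatidic acid receptors of non-peptidergic nociceptors, and the growth factor receptor Ret (-1.07 ± 0.21). The one rise was Nppb, the natriuretic peptide of the itch-sensing neurons that also express Sst. Nppb measured 10.7 and 18.6 FPKM in the dKO SNI pair, against 6.73 and 6.32 FPKM in the WT SNI pair (log2 change 1.01 ± 0.24, adjusted p = 0.0198), so these 2 peptide genes of 1 class went in opposite directions, with no overlap between the groups in either. The peptide genes Calca (0.29, 95% interval -0.10 to 0.67) and Tac1 (0.03, 95% interval -0.35 to 0.41) did not pass the test. Pvalb, of proprioceptors, measured 67.7 and 63.9 FPKM in the dKO SNI pair, against 61.9 and 72.2 FPKM in the WT SNI pair, and its groups overlapped.

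Pan-neuronal markers that were called were all lower. Of 21 tested, 11 were lower and 0 higher, with a median of -0.60 (-0.53 without dKO SNI 2 and -0.58 without WT SNI 1). The 11 include Avil, the gene that drives the Cre. Their summed level was 6541 and 5053 FPKM in the dKO SNI pair, against 10183 and 8219 FPKM in the WT SNI pair, which is lower in both dKO SNI libraries than in either WT SNI library. Thy1, a surface glycoprotein of neurons, measured 239 and 163 FPKM in the dKO SNI pair, against 458 and 351 FPKM in the WT SNI pair (log2 change -1.02 ± 0.21, adjusted p = 0.0144). Pou4f1, a transcription factor of sensory neuron identity, measured 13.6 and 10.6 FPKM in the dKO SNI pair, against 24 and 20.3 FPKM in the WT SNI pair (log2 change -0.83 ± 0.15, adjusted p = 0.0112). In sham ganglia the medians of the synaptic, channel, class and pan-neuronal lists were -0.20, -0.17, -0.17 and -0.10, with 0 members called in the first 3 lists and Avil in the last. Neutrophil transcripts, described below, took up 2.4 and 2.31% of all FPKM in dKO SNI, against 0.492 and 0.911% in WT SNI. Their part in the lower neuronal values was not tested.

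**Figure D2:**
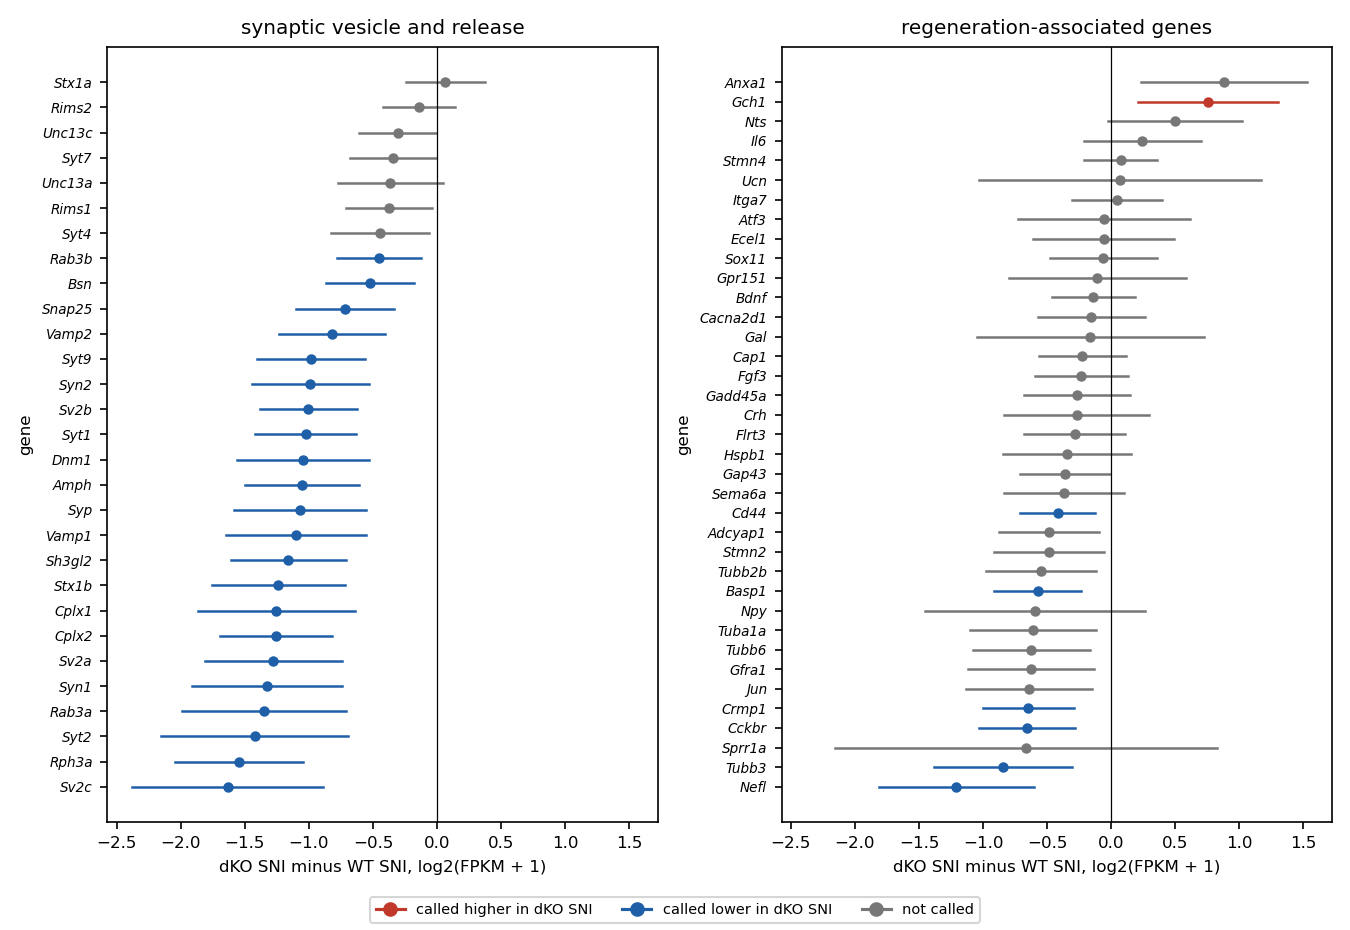
Difference of log2(FPKM + 1), dKO SNI minus WT SNI, for 29 of the 30 tested genes of the synaptic vesicle list (left) and the 37 of the regeneration-associated list (right), with 95% intervals from limma. Blue marks genes called lower (22 of those shown on the left and 6 on the right), red a gene called higher, and grey genes not called.

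Genes of the regeneration programme were called about as often as genes at large. Of 37 tested, 6 were lower and 1 higher, beside 13.4% and 10.7% of all genes, and 13 were called in all without WT SNI 2, while 30 of the 37 pointed down and the median was -0.29 (-0.31 without dKO SNI 2 and -0.21 without WT SNI 1). Atf3, the transcription factor induced by axon injury, measured 163 and 148 FPKM in the dKO SNI pair, against 178 and 147 FPKM in the WT SNI pair (-0.06, 95% interval -0.73 to 0.62). Gal, the neuropeptide galanin, measured 532 and 403 FPKM in the dKO SNI pair, against 513 and 523 FPKM in the WT SNI pair (-0.16, 95% interval -1.05 to 0.72). Gpr151, an orphan receptor of injured neurons, measured 68 and 62.4 FPKM in the dKO SNI pair, against 71 and 69.7 FPKM in the WT SNI pair (-0.11, 95% interval -0.80 to 0.58). The groups overlapped for Atf3 and Gal, and the intervals allow changes in either direction. These intervals use the spread within all 4 groups, sham libraries included, so they do not measure the spread of the injured libraries alone. Stmn4, a tubulin-binding stathmin, had a narrower interval (0.07, 95% interval -0.21 to 0.36). The members called lower were Nefl, the light neurofilament chain (-1.21 ± 0.27), Tubb3 (-0.85 ± 0.24), Crmp1, a collapsin response mediator (-0.65 ± 0.16), the cholecystokinin receptor Cckbr (-0.65 ± 0.17), Basp1, a membrane protein of growth cones (-0.58 ± 0.15), and the hyaluronan receptor Cd44 (-0.42 ± 0.13). Nefl and Tubb3 are counted among the pan-neuronal falls as well. Gch1, the first enzyme of tetrahydrobiopterin synthesis, was the rise (log2 change 0.76 ± 0.24, adjusted p = 0.0498). Among 30 tested transcription factors linked to regeneration, 2 were higher and 4 lower. Cebpb, a factor of both injured neurons and myeloid cells, measured 29.6 and 26.8 FPKM in the dKO SNI pair, against 8.65 and 11.5 FPKM in the WT SNI pair (log2 change 1.41 ± 0.29, adjusted p = 0.0132). Cebpd changed by 0.72 ± 0.14. Klf7, which supports axon growth, measured 18.2 and 16.6 FPKM in the dKO SNI pair, against 32.9 and 29.7 FPKM in the WT SNI pair (log2 change -0.81 ± 0.19, adjusted p = 0.0198). Stat3, which acts in cytokine signalling, measured 31.6 and 24.8 FPKM in the dKO SNI pair, against 51.9 and 40.8 FPKM in the WT SNI pair (log2 change -0.70 ± 0.17, adjusted p = 0.0196).

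Neutrophil genes rose as a group. Of 27 tested markers of secondary granules and mature neutrophils, 26 were higher and 0 lower, beside 10.7% higher over all genes, and the median change was 1.53 (1.61 without dKO SNI 2 and 1.18 without WT SNI 1). S100a8 and S100a9 encode the paired calcium-binding proteins of neutrophil cytosol and lie side by side at chr3:90668978-90695721. S100a8 measured 2742 and 2760.4 FPKM in the dKO SNI pair, against 411 and 859 FPKM in the WT SNI pair (log2 change 2.21 ± 0.35, adjusted p = 0.00965). S100a9 measured 2439 and 2356 FPKM in the dKO SNI pair, against 424 and 868 FPKM in the WT SNI pair (log2 change 1.98 ± 0.38, adjusted p = 0.0118). Both dKO SNI libraries were close together and above both WT SNI libraries, and WT SNI 2 was nearer to them than WT SNI 1. Camp, the cathelicidin of secondary granules, measured 400.2 and 378 FPKM in the dKO SNI pair, against 74.7 and 126 FPKM in the WT SNI pair (log2 change 1.99 ± 0.27, adjusted p = 0.00929). Pglyrp1, a peptidoglycan-binding protein of granules, measured 82.3 and 83.8 FPKM in the dKO SNI pair, against 18.1 and 32.1 FPKM in the WT SNI pair (log2 change 1.74 ± 0.26, adjusted p = 0.00929). Retnlg changed by 1.79 ± 0.36, Ifitm6 by 1.88 ± 0.29 and Lrg1 by 1.47 ± 0.22. The summed level of the list was 8025 and 7857 FPKM in the dKO SNI pair, against 1496 and 2879 FPKM in the WT SNI pair. In the sham libraries it was 817 and 1371 FPKM in dKO sham, against 842 and 1119 FPKM in WT sham, with a median genotype change of 0.10.

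Genes of earlier myeloid cells rose beside them. Of 19 tested markers of primary granules and precursors, 16 were higher and 0 lower, with a median of 1.17 (1.28 without dKO SNI 2 and 0.93 without WT SNI 1). Prtn3 measured 48.4 and 56 FPKM in the dKO SNI pair, against 8.16 and 12.4 FPKM in the WT SNI pair (log2 change 2.26 ± 0.20, adjusted p = 0.00194). Mpo measured 63.4 and 56.2 FPKM in the dKO SNI pair, against 14.1 and 19.5 FPKM in the WT SNI pair (log2 change 1.79 ± 0.16, adjusted p = 0.00211). Elane, neutrophil elastase, whose gene adjoins Prtn3 at chr10:79874476-79888215, measured 78.4 and 87.1 FPKM in the dKO SNI pair, against 21.8 and 27.2 FPKM in the WT SNI pair (log2 change 1.72 ± 0.24, adjusted p = 0.00929). In each of these 3 genes every dKO SNI value was above every WT SNI value. Nkg7, a granule membrane protein of lymphocytes and myeloid cells, measured 14.8 and 12.4 FPKM in the dKO SNI pair, against 1.72 and 1.97 FPKM in the WT SNI pair (log2 change 2.35 ± 0.34, adjusted p = 0.00929). Hk3, a hexokinase of myeloid cells, changed by 1.15 ± 0.15. Spi1, the transcription factor PU.1, measured 22.9 and 19.6 FPKM in the dKO SNI pair, against 6.26 and 7.73 FPKM in the WT SNI pair (log2 change 1.48 ± 0.18, adjusted p = 0.00894). Of 16 tested stem and progenitor markers, 5 were higher and 3 lower, beside 10.7% and 13.4% of all genes, with a median of 0.28.

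Monocyte and macrophage genes were higher too. Of 27 tested macrophage and monocyte markers, 16 were higher and 0 lower, with a median of 0.75 (0.72 without dKO SNI 2 and 0.72 without WT SNI 1). Ly6c2, a surface marker of inflammatory monocytes, measured 109 and 164 FPKM in the dKO SNI pair, against 23.7 and 31.9 FPKM in the WT SNI pair (log2 change 2.24 ± 0.25, adjusted p = 0.00688). Ccr2, their chemokine receptor, measured 8.95 and 14 FPKM in the dKO SNI pair, against 3.97 and 4.64 FPKM in the WT SNI pair (log2 change 1.21 ± 0.19, adjusted p = 0.00934). Fcgr1, a high-affinity antibody receptor, changed by 1.48 ± 0.29, and the protease Ctss by 1.04 ± 0.20. Mrc1 and Cd163, both typical of resident macrophages, did not pass the test. Mrc1, the mannose receptor, measured 27.7 and 22.2 FPKM in the dKO SNI pair, against 19 and 22 FPKM in the WT SNI pair (0.27, 95% interval -0.06 to 0.59). Cd163, a haemoglobin scavenger receptor, measured 7.61 and 5.88 FPKM in the dKO SNI pair, against 7.24 and 7.69 FPKM in the WT SNI pair (-0.14, 95% interval -0.46 to 0.18). Of 22 tested cytokines and chemokines, 9 were higher and 0 lower, beside 10.7% and 13.4% of all genes. The monocyte attractants led them, with Ccl2 at 7.59 and 13.6 FPKM in the dKO SNI pair, against 2.86 and 3.18 FPKM in the WT SNI pair (log2 change 1.48 ± 0.21, adjusted p = 0.00929), Ccl12 at 19.5 and 35.4 FPKM in the dKO SNI pair, against 5.04 and 7.63 FPKM in the WT SNI pair and Ccl7 changed by 1.70 ± 0.34. Ccl9, made by macrophages, changed by 1.24 ± 0.18. Of 19 tested complement genes, 11 were higher and 0 lower, with a median of 0.73 (0.44 without dKO SNI 2 and 0.63 without WT SNI 1). Cfp, properdin, the positive regulator of the alternative pathway, measured 28.4 and 29.2 FPKM in the dKO SNI pair, against 10.9 and 11.8 FPKM in the WT SNI pair (log2 change 1.27 ± 0.14, adjusted p = 0.00688). C3, the central component, measured 16.9 and 17.1 FPKM in the dKO SNI pair, against 4.37 and 8.3 FPKM in the WT SNI pair, and the complement receptor chains Itgb2 and Itgam changed by 1.35 ± 0.22 and 1.03 ± 0.22.

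**Figure D3:**
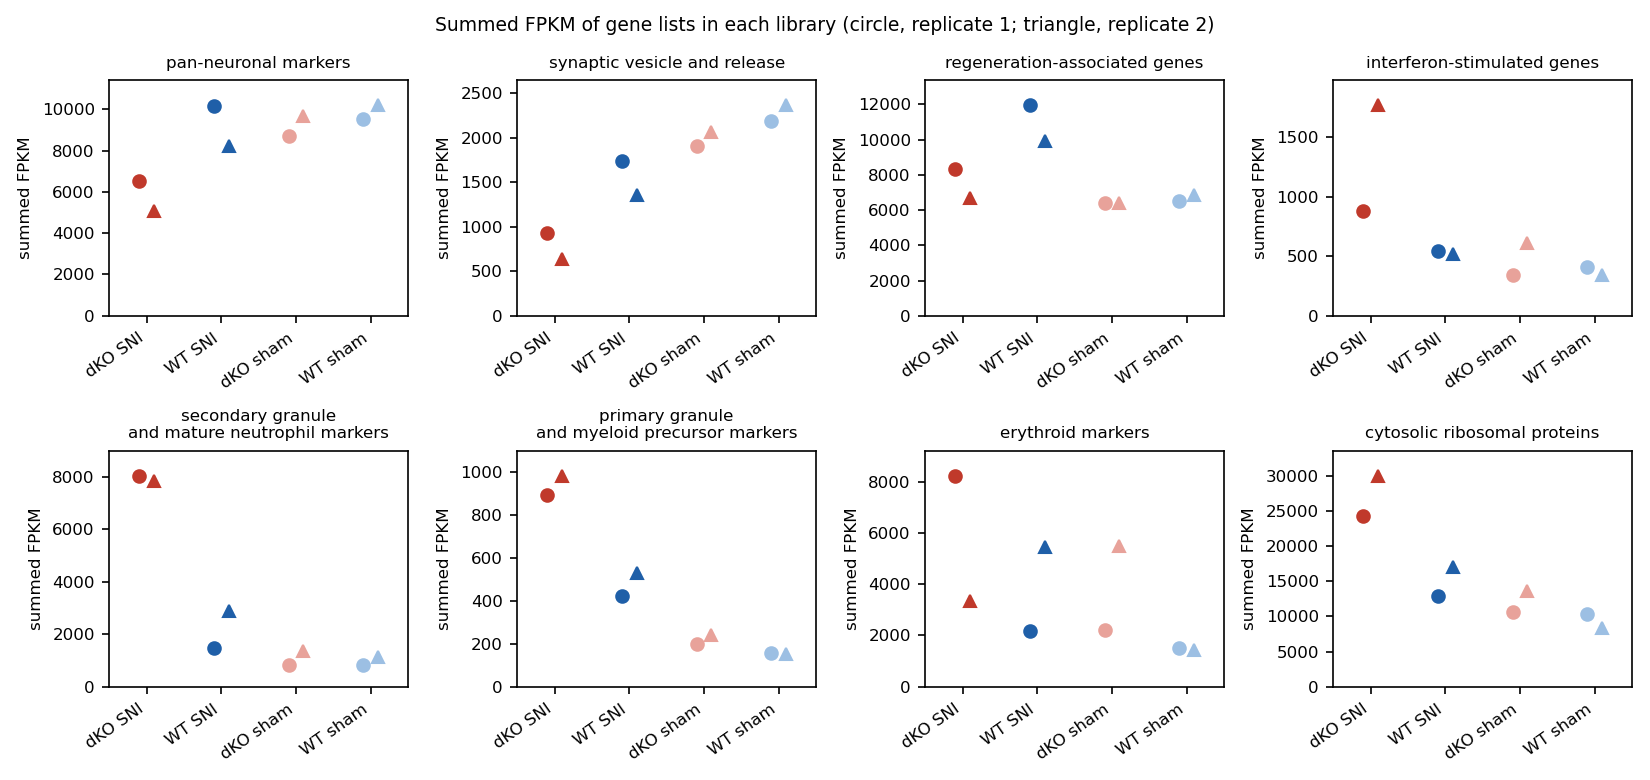
Summed FPKM of 8 gene lists in each library, on linear axes from 0, with 1 panel for each list and the groups in the order dKO SNI, WT SNI, dKO sham and WT sham (circle, replicate 1; triangle, replicate 2). The neutrophil panel places both dKO SNI libraries at 8025 and 7857 FPKM, against 1496 and 2879 FPKM for WT SNI, and the interferon panel places dKO SNI 2 far above dKO SNI 1.

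Called interferon-stimulated genes were all higher in dKO SNI, by amounts that differed between its 2 libraries. Interferon signalling acts through transcription factors that bind a repeated GAAA element in promoters. Of 46 genes tested, 25 were higher and 0 lower, with a median of 1.09 (0.60 without dKO SNI 2 and 1.18 without WT SNI 1). The summed level was 879 and 1768 FPKM in the dKO SNI pair, against 543 and 519 FPKM in the WT SNI pair, so dKO SNI 2 stood far above the other 3 injured libraries. The number called was 41 without dKO SNI 1 and 16 without WT SNI 2. Isg15, a ubiquitin-like modifier, measured 44 and 95.3 FPKM in the dKO SNI pair, against 9.08 and 12.2 FPKM in the WT SNI pair (log2 change 2.51 ± 0.62, adjusted p = 0.0216). Ifi27l2a, a small membrane protein, measured 36.5 and 182 FPKM in the dKO SNI pair, against 17.1 and 13.9 FPKM in the WT SNI pair (log2 change 2.34 ± 0.63, adjusted p = 0.0279). Irf7, the transcription factor that amplifies interferon production, measured 13 and 56.6 FPKM in the dKO SNI pair, against 7.79 and 3.2 FPKM in the WT SNI pair (log2 change 2.22 ± 0.65, adjusted p = 0.0369). For Ifi27l2a and Irf7, dKO SNI 1 lay nearer to WT SNI than to dKO SNI 2. A more even difference was seen for Oas3, an enzyme that makes the activator of RNase L, at 5.97 and 7.97 FPKM in the dKO SNI pair, against 1.04 and 1.18 FPKM in the WT SNI pair (log2 change 1.91 ± 0.30, adjusted p = 0.00934), for Oas2 at 4.94 and 5.51 FPKM in the dKO SNI pair, against 1.93 and 1.24 FPKM in the WT SNI pair and for the nuclear body protein Sp100 at 9.88 and 10.9 FPKM in the dKO SNI pair, against 2.97 and 3.55 FPKM in the WT SNI pair. Rtp4 measured 12.1 and 26.6 FPKM in the dKO SNI pair, against 3.48 and 3.64 FPKM in the WT SNI pair (log2 change 2.06 ± 0.40, adjusted p = 0.0122). Cxcl10, an interferon-induced chemokine, measured 2.18 and 6.22 FPKM in the dKO SNI pair, against 4.03 and 4.86 FPKM in the WT SNI pair with overlapping groups (-0.18, 95% interval -0.98 to 0.62).

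The element was looked for in the 250 bases before and 50 bases after each gene's start (RefSeq, build GRCm38.p6), as GAAA, any 2 bases and GAAA again, on either strand, with overlapping matches counted. It was present in 3.99% of 27025 genes with such a window and in 3.76% of the 9885 tested genes among them. Of 36 interferon-list members with a window, 20 held it (55.6%). It was held by 7 of the 18 members called higher (38.9%) and by 13 of the 18 members not called (72.2%), so the match did not sort the called members from the rest. A match describes letters and is no evidence of binding. The windows of 3 called members are shown from 250 bases before the start up to the base before it, 5′ to 3′ on the gene's strand, since they differ in how many matches they hold; capitals mark the matches.
Isg15, chr4:156200819-156201068, minus strand: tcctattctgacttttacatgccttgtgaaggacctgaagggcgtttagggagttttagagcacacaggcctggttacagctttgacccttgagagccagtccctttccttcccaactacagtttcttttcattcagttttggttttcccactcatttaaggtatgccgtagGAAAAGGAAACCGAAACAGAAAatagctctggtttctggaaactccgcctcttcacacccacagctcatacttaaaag
Ifit3, chr19:34583279-34583528, plus strand: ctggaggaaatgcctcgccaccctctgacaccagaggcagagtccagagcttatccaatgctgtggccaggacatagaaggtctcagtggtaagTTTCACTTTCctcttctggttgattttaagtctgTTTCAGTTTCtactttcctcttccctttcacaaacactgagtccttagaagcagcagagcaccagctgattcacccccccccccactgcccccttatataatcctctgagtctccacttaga
Oas3, chr5:120777660-120777909, minus strand: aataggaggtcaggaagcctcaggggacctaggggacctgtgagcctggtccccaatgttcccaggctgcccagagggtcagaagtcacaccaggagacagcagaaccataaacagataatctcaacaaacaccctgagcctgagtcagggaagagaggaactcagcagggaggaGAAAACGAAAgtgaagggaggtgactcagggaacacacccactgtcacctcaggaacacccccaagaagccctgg
Isg15 had 3 overlapping matches, the first starting 78 bases before the start, Ifit3 had 2, and Oas3 had 1, starting 75 bases before it. Ifit3, which binds foreign RNA with its relatives, measured 15.6 and 53.7 FPKM in the dKO SNI pair, against 7.37 and 6.33 FPKM in the WT SNI pair (log2 change 1.94 ± 0.60, adjusted p = 0.0426). The changes of Isg15, Ifit3 and Oas3 were 2.51 ± 0.62, 1.94 ± 0.60 and 1.91 ± 0.30.

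Called genes of antigen presentation were all higher. Of 21 tested genes of MHC class I presentation, 10 were higher and 0 lower, with a median of 0.84 (0.43 without dKO SNI 2 and 0.80 without WT SNI 1), and 3 were called without WT SNI 2. Psmb9 and Psmb8, subunits of the immunoproteasome, flank the peptide transporter Tap1 at chr17:34181987-34201454, and all 3 were higher by at least 1. Psmb9 measured 13.2 and 18.1 FPKM in the dKO SNI pair, against 4.59 and 5.2 FPKM in the WT SNI pair (log2 change 1.48 ± 0.22, adjusted p = 0.00929), with dKO SNI 2 somewhat higher, whereas Psmb8 measured 25.2 and 53.4 FPKM in the dKO SNI pair, against 15.7 and 15.4 FPKM in the WT SNI pair, with dKO SNI 2 the highest. H2-Q7, a class I gene with close paralogs that can share reads, changed by 1.52 ± 0.33. Of 11 tested genes of MHC class II presentation, 4 were higher and 0 lower. H2-Ab1, a class II beta chain, measured 51.7 and 66.8 FPKM in the dKO SNI pair, against 30.3 and 31.3 FPKM in the WT SNI pair (log2 change 0.91 ± 0.16, adjusted p = 0.0111). Cd74, the invariant chain, measured 96.2 and 116 FPKM in the dKO SNI pair, against 54.8 and 61.2 FPKM in the WT SNI pair (log2 change 0.85 ± 0.15, adjusted p = 0.0112).

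Genes of cell division and DNA replication were mostly higher. Of 39 tested, 34 were higher and 0 lower, with a median of 0.88 (0.91 without dKO SNI 2 and 0.65 without WT SNI 1). Ube2c, the ubiquitin carrier of the anaphase complex, measured 21.6 and 20.9 FPKM in the dKO SNI pair, against 7.2 and 9.58 FPKM in the WT SNI pair (log2 change 1.26 ± 0.16, adjusted p = 0.00929). Plk1, a mitotic kinase, measured 5.45 and 5.48 FPKM in the dKO SNI pair, against 1.87 and 1.98 FPKM in the WT SNI pair (log2 change 1.14 ± 0.16, adjusted p = 0.00929). Ccna2, cyclin A2, changed by 1.27 ± 0.18 and Birc5, survivin, by 1.10 ± 0.16. In these 4 genes the dKO SNI libraries were close to each other and did not overlap WT SNI. The sham libraries leaned the same way with a median of 0.43, and Ube2c was called there too, at 4.29 and 5.79 FPKM in the dKO sham pair, against 0.989 and 1.09 FPKM in the WT sham pair.

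Genes of cytosolic ribosomal proteins were higher as well. Of 52 tested, 40 were higher and 0 lower, with changes from 0.37 to 1.52 and a median of 0.79 (0.70 without dKO SNI 2 and 0.61 without WT SNI 1). Their summed level was 24303 and 29929.7 FPKM in the dKO SNI pair, against 12846 and 17091 FPKM in the WT SNI pair, with both groups higher in replicate 2. Rps19, of the small subunit, measured 196 and 252 FPKM in the dKO SNI pair, against 84.8 and 112 FPKM in the WT SNI pair (log2 change 1.18 ± 0.23, adjusted p = 0.0118). Rplp1, of the stalk, measured 875 and 953 FPKM in the dKO SNI pair, against 357 and 502 FPKM in the WT SNI pair (log2 change 1.11 ± 0.22, adjusted p = 0.0126). Rpl34, outside the list, had the largest change of the named genes that are not Y-linked, at 254 and 156 FPKM in the dKO SNI pair, against 54 and 15.2 FPKM in the WT SNI pair (log2 change 2.74 ± 0.78, adjusted p = 0.0342). Its values also spread widely within groups, and ribosomal protein genes have processed copies that can share reads, so its size is uncertain. With library totals recomputed without ribosomal and erythroid genes, the median change of all genes was -0.08 and that of this list 0.73.

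Called genes of glycolysis and of cholesterol synthesis were all lower. Of 27 tested genes of glycolysis and the citric acid cycle, 13 were lower and 0 higher, with a median of -0.55 (-0.37 without dKO SNI 2 and -0.47 without WT SNI 1). Hk1, the main hexokinase of neurons, measured 23.9 and 15.9 FPKM in the dKO SNI pair, against 48 and 35.4 FPKM in the WT SNI pair (log2 change -1.04 ± 0.20, adjusted p = 0.0122). Pfkp, a phosphofructokinase, measured 37.3 and 28.5 FPKM in the dKO SNI pair, against 71.2 and 60.6 FPKM in the WT SNI pair (log2 change -0.99 ± 0.17, adjusted p = 0.0112). Aldoc, a brain aldolase, changed by -0.91 ± 0.18. The 34 tested subunits of the respiratory chain had 3 higher, 4 lower and a median of 0.25, with 23 pointing up and 11 down, and 13 were called without dKO SNI 1. Respiratory chain subunits were thus called about as often as genes at large (10.7% higher and 13.4% lower). Ndufa10, a subunit of complex I, measured 49.5 and 36.4 FPKM in the dKO SNI pair, against 82.4 and 70.8 FPKM in the WT SNI pair (log2 change -0.83 ± 0.17, adjusted p = 0.0126). Cox7b, of complex IV, measured 243 and 327 FPKM in the dKO SNI pair, against 136 and 186 FPKM in the WT SNI pair (log2 change 0.82 ± 0.22, adjusted p = 0.03). Of 21 tested genes of cholesterol synthesis and uptake, 8 were lower and 0 higher, with a median of -0.35 (-0.26 without dKO SNI 2 and -0.35 without WT SNI 1). Sqle, squalene epoxidase, measured 43.2 and 31.8 FPKM in the dKO SNI pair, against 68.9 and 58.4 FPKM in the WT SNI pair (log2 change -0.76 ± 0.16, adjusted p = 0.015). Dhcr7, which acts at the end of the synthesis, changed by -0.63 ± 0.14.

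**Figure D4:**
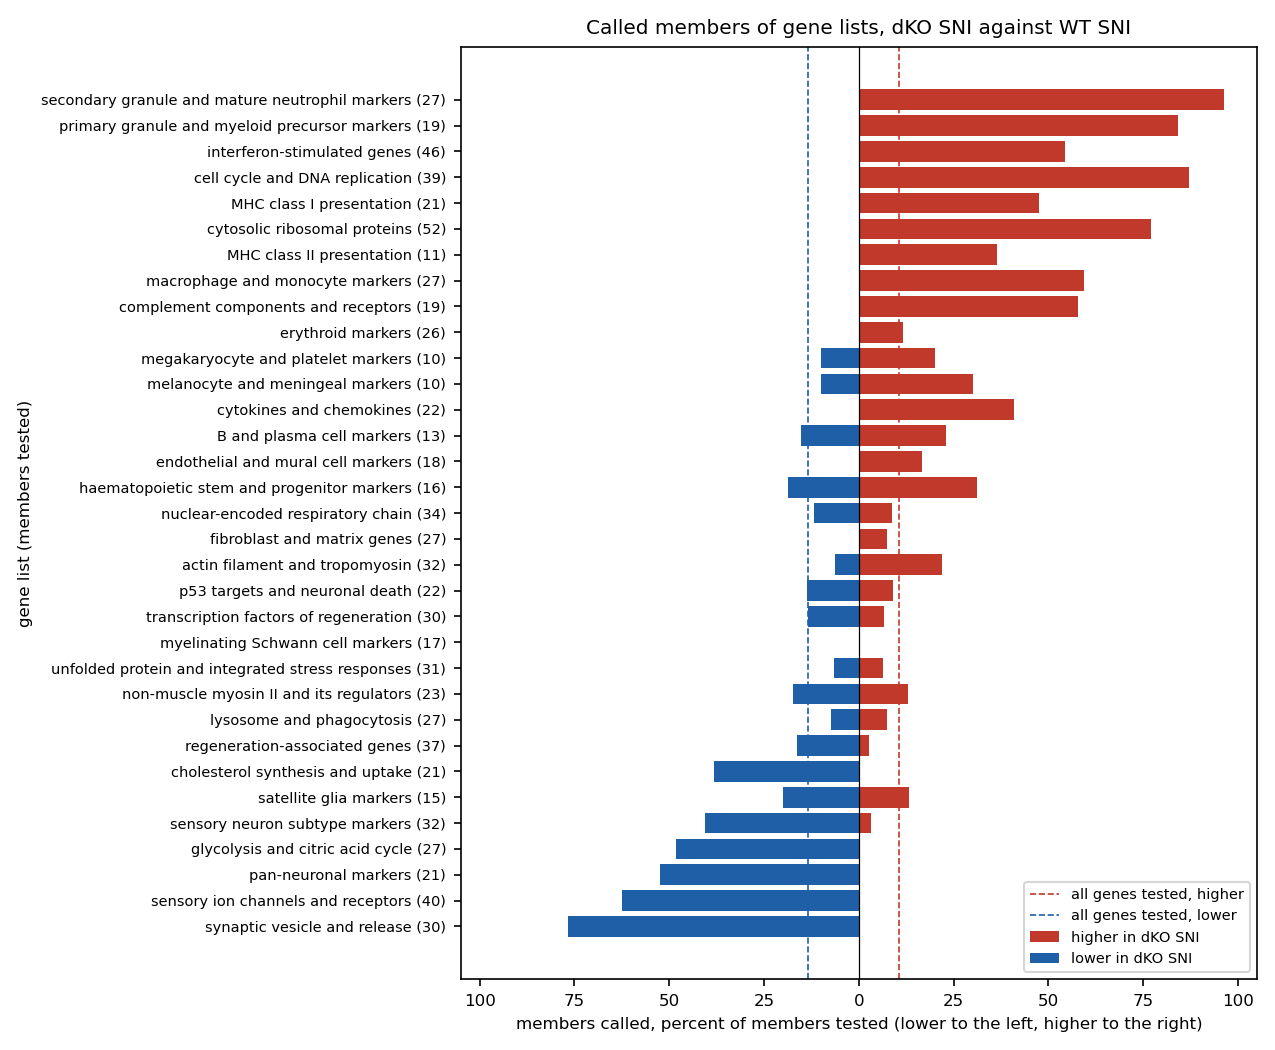
Percent of tested members called higher (red, to the right) or lower (blue, to the left) in dKO SNI against WT SNI, for each list with 10 or more tested members, ordered by median change, with the number tested in brackets. Dashed lines mark all genes tested, 10.7% higher and 13.4% lower; mature neutrophil markers (26 of 27) stand at the top and synaptic vesicle genes (23 of 30) at the bottom.

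Stress and death genes were called no more than about as often as genes at large, in both directions. Of 31 tested genes of the unfolded protein and integrated stress responses, 2 were higher and 2 lower, beside 10.7% and 13.4% of all genes. Asns, asparagine synthetase, measured 72.3 and 56.9 FPKM in the dKO SNI pair, against 99.7 and 111 FPKM in the WT SNI pair (log2 change -0.70 ± 0.15, adjusted p = 0.0147). Ddit3, a stress-induced transcription factor, measured 11.7 and 13.8 FPKM in the dKO SNI pair, against 9.21 and 7.49 FPKM in the WT SNI pair (log2 change 0.56 ± 0.14, adjusted p = 0.0248). Of 22 tested p53 targets and regulators of neuronal death, 2 were higher and 3 lower, near those shares. Sarm1, the NAD-cleaving enzyme that drives axon degeneration, measured 4.84 and 4.45 FPKM in the dKO SNI pair, against 9.9 and 8.34 FPKM in the WT SNI pair (log2 change -0.84 ± 0.16, adjusted p = 0.0121). Nmnat2, the enzyme that holds it in check, measured 5.41 and 4.53 FPKM in the dKO SNI pair, against 8.91 and 7.25 FPKM in the WT SNI pair (log2 change -0.60 ± 0.15, adjusted p = 0.0216). Bbc3, a pro-apoptotic target of p53, measured 2.77 and 3.16 FPKM in the dKO SNI pair, against 1.74 and 1.41 FPKM in the WT SNI pair (log2 change 0.62 ± 0.15, adjusted p = 0.0198). Of 27 tested lysosomal and phagocytic genes, 2 were higher and 2 lower, with the cathepsin Ctsh changed by 0.99 ± 0.18 and the cathepsin Ctsb by -0.59 ± 0.17.

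The motor's partners were read as well. Of 23 tested genes of myosin II and its regulators, 3 were higher and 4 lower, beside 10.7% and 13.4% of all genes. S100a4, a calcium-binding partner of the myosin IIA heavy chain that is abundant in leukocytes, measured 56.7 and 77.8 FPKM in the dKO SNI pair, against 21.7 and 33 FPKM in the WT SNI pair (log2 change 1.28 ± 0.26, adjusted p = 0.0127). Myl12a, a regulatory light chain, measured 37.2 and 40.5 FPKM in the dKO SNI pair, against 21.1 and 26.9 FPKM in the WT SNI pair (log2 change 0.68 ± 0.17, adjusted p = 0.0213). Limk1, the kinase that inactivates cofilin, measured 12.8 and 9.75 FPKM in the dKO SNI pair, against 21.2 and 16.4 FPKM in the WT SNI pair (log2 change -0.69 ± 0.17, adjusted p = 0.0235). Of 32 tested genes of actin filaments, 7 were higher and 2 lower. Cnn2, a calponin, measured 33.9 and 33.8 FPKM in the dKO SNI pair, against 12.2 and 16.7 FPKM in the WT SNI pair (log2 change 1.18 ± 0.21, adjusted p = 0.0112). Coro1a, the coronin of leukocytes, measured 51.5 and 56.1 FPKM in the dKO SNI pair, against 27.7 and 33.7 FPKM in the WT SNI pair (log2 change 0.79 ± 0.15, adjusted p = 0.0118). Flna, filamin A, changed by 0.69 ± 0.13 and Tpm4, a tropomyosin, by 0.50 ± 0.14. Leukocyte markers rose in the same libraries, as given above, and their part in these changes was not tested.

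Markers of other ganglion cells were read against the 10.7% higher and 13.4% lower over all genes. None of 17 tested markers of myelinating Schwann cells was called, with 0 higher and 0 lower by limma, 1 at an unadjusted p under 0.05 and a median of -0.02. Of 15 tested satellite glia markers, 2 were higher and 3 lower. Fabp7, with the values given first, was among the rises (log2 change 0.65 ± 0.17, adjusted p = 0.0277). Kcnj10, the potassium channel of satellite glia, measured 7.18 and 5.9 FPKM in the dKO SNI pair, against 12.2 and 8.83 FPKM in the WT SNI pair (log2 change -0.60 ± 0.16, adjusted p = 0.0273) and Gja1, connexin 43, measured 6.1 and 6.53 FPKM in the dKO SNI pair, against 9.66 and 9.51 FPKM in the WT SNI pair. Of 18 tested endothelial and mural markers, 3 were higher and 0 lower, among them the tight junction gene Cldn5 (0.64 ± 0.17). Fibroblast genes numbered 27 tested, with 2 higher and 0 lower, Dcn (0.98 ± 0.29) and Col5a2 (0.46 ± 0.14), with a median of 0.19 after axotomy and 0.75 after sham surgery, and 8 were called after axotomy without WT SNI 2. Col1a1, the main fibrillar collagen, measured 43.9 and 40.5 FPKM in the dKO SNI pair, against 33.3 and 41.8 FPKM in the WT SNI pair, and its groups overlapped.

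Erythroid and lymphoid transcripts were read beside the myeloid ones, and against the 10.7% higher and 13.4% lower over all genes. Erythroid levels overlapped between the groups. Hbb-bs, a beta globin, measured 4547 and 1921 FPKM in the dKO SNI pair, against 1213 and 3143 FPKM in the WT SNI pair, with the highest value in dKO SNI 1 and the next in WT SNI 2. Of 26 tested erythroid markers, 3 were higher and 0 lower, which became 0 without dKO SNI 1 and 7 without WT SNI 2, and the summed level was 8211 and 3356 FPKM in the dKO SNI pair, against 2171 and 5469.7 FPKM in the WT SNI pair. Of 13 tested B cell markers, 3 were higher and 2 lower. Their summed level overlapped between the groups, at 106 and 81.1 FPKM in the dKO SNI pair, against 94.4 and 107 FPKM in the WT SNI pair. Ebf1 was among the falls, with changes from -0.74 to -0.39 over the alternatives. Dntt and Igll1, which act in early B cell development, were among the rises: Dntt measured 2.38 and 1.64 FPKM in the dKO SNI pair, against 0.366 and 0.444 FPKM in the WT SNI pair (log2 change 1.09 ± 0.16, adjusted p = 0.00929). Igll1 measured 1.31 and 1.13 FPKM in the dKO SNI pair, against 0.321 and 0.65 FPKM in the WT SNI pair (log2 change 0.59 ± 0.17, adjusted p = 0.0357). The Igll1 call was lost, among others, with a pseudocount of 0.1 and with the injured libraries alone. Gzma, a granule protease, was the one rise of 3 tested T and NK cell markers, at 2.61 and 6.7 FPKM in the dKO SNI pair, against 0.11 and 1.06 FPKM in the WT SNI pair (log2 change 1.80 ± 0.36, adjusted p = 0.0124). The part of blood or of marrow cells in the rise of granule genes was not tested.

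The genotype difference after axotomy was set beside the one after sham surgery, which uses other libraries. Across 12884 genes the differences correlated at 0.487 (Pearson) and 0.594 (Spearman), and 71.5% of genes had the same sign, as a description across genes, which are not independent. Genes called in the same direction in both were 5 in number, and 5 were called in opposite directions, among them the 4 Y-linked genes. The 5 in the same direction were Avil, Cfp, Ube2c, Col5a2 and Cyp4f39, a cytochrome P450. The axotomy call of Col5a2 (adjusted p = 0.0435) held in 9 of 19 alternatives and was lost, among others, with a replicate block, with the injured libraries alone and with a pseudocount of 0.1. Cfp measured 3.92 and 4.91 FPKM in the dKO sham pair, against 1.54 and 1.95 FPKM in the WT sham pair. The test of the difference between the contrasts called 7 genes (0.0543%), of which 4 were Y-linked. For every gene it sets dKO SNI and WT sham, which held Y-linked transcripts, against WT SNI and dKO sham. Dependence on surgery and the Y-linked split therefore cannot be told apart in it. Tyrp1, a melanin-forming enzyme, was lower after axotomy at 9.83 and 8.53 FPKM in the dKO SNI pair, against 16.9 and 16.7 FPKM in the WT SNI pair, and higher after sham surgery at 25.6 and 23.5 FPKM in the dKO sham pair, against 3.61 and 4.36 FPKM in the WT sham pair. Asprv1, a retroviral-like protease, measured 7.22 and 7.74 FPKM in the dKO SNI pair, against 2.36 and 2.7 FPKM in the WT SNI pair, and 1.17 and 1.27 FPKM in the dKO sham pair, against 1.51 and 1.38 FPKM in the WT sham pair. For the neuronal and neutrophil genes named above, no such difference between the surgeries passed the test, so a genotype effect particular to injury is not shown for them. At an unadjusted p under 0.05 the difference called 1863 genes.

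**Figure D5:**
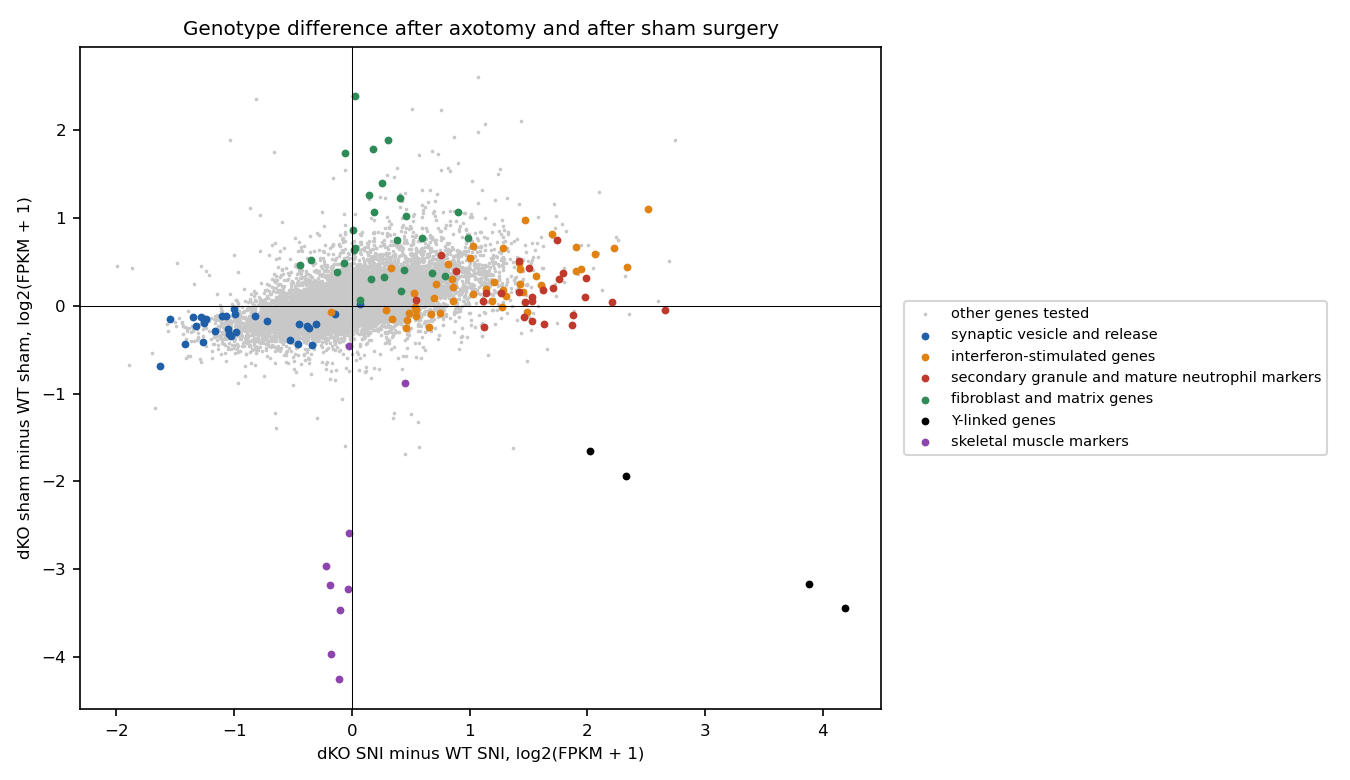
Genotype difference of log2(FPKM + 1) after axotomy (dKO SNI minus WT SNI, horizontal) and after sham surgery (dKO sham minus WT sham, vertical) for the 12884 genes, with members of 6 lists coloured. Neutrophil markers extend to the right near the zero line of the sham contrast, with medians of 1.53 and 0.10, fibroblast genes extend upward, and the Y-linked genes lie at the lower right.

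Called genes with a change of at least 1 lay next to each other in places in the GRCm38 annotation. On chromosome 16, 5 neighbouring genes of the stefin A cluster, cysteine protease inhibitors of neutrophils, were all higher at chr16:36156811-36455392, with changes from 1.66 to 2.66. On chromosome 19, 6 genes of the Ms4a family, membrane proteins of myeloid and other blood cells, were higher at chr19:11404770-11640851, with changes from 1.17 to 1.80. The schlafen genes Slfn1, Slfn2 and Slfn4 were higher at chr11:83065112-83190216, and Slfn4 measured 24.3 and 34.6 FPKM in the dKO SNI pair, against 2.75 and 4.71 FPKM in the WT SNI pair (log2 change 2.69 ± 0.46, adjusted p = 0.0111). On chromosome 15, Ly6c2 and Ly6g lie within chr15:75108158-75159126. The genes Nefm and Nefl, which adjoin at chr14:68082590-68124846, were both lower. Close paralogs in these clusters can share reads, so the split of the signal among members is uncertain.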

How the data were processed

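Gene expression was measured by RNA sequencing in 8 libraries of mouse dorsal root ganglia. The authors deposited 1 table of FPKM values for 21878 gene symbols, with 1 column per library, identified through the sample descriptions. Per the submitters' processing notes, HISAT2 2.0.4, StringTie 1.3.0 and edgeR were used with builds GRCm38.p4 and mm10; settings are not given. FPKM depend on transcript models and on library totals, so a large rise of abundant genes lowers others. Whole reads could not be recovered from low values (22.2% of 14091 ratios were whole to within 0.1, chance giving 20%), so depth is unknown and no count test was run.

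The 12884 genes with at least 1 FPKM in 2 or more libraries were tested on log2(FPKM + 1), a scale that understates changes of low values, with limma 3.58.1 (R 4.3.3). All 8 libraries entered the fit with a mean for each of the 4 groups, leaving 4 residual degrees of freedom, with empirical Bayes moderation with a mean-variance trend and two-sided tests, with Benjamini-Hochberg adjustment over all genes at 0.05. The ± after a change is its standard error, and intervals are 95%. Scripts were tested on simulated data. Exact permutation of 2 and 2 libraries gives p = 0.333 at best and was not used. Alternatives were another pseudocount, other filters and scalings, other moderation, the injured libraries alone, a replicate block, the averaged genotype difference and leaving out each library.

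The members and the 41 gene lists were chosen with earlier results of these data known. Named genes are the targeted genes and Avil, the 15 largest rises and falls among called genes without overlap between the groups, the 10 largest among those with a mean of at least 50 FPKM in the injured libraries (predicted and Y-linked genes left out of both), the top 4 of each list by p, and genes called in the interaction or in both genotype contrasts. Other genes the text names were chosen after their values were seen. Predicted genes numbered 42 of the rises and 37 of the falls. Gene coordinates are from GENCODE for GRCm38 (12493 of the tested genes matched) and promoter sequences from RefSeq for GRCm38.p6. Xist was not analysed here, and some members of the lists are not reported by name.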

Additional observations from a re-analysis of the deposited data

Results flagged for a closer look

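The genotype difference after axotomy differed from the one after sham surgery in 7 genes by the limma test of that difference. On the log2(FPKM + 1) scale, with Benjamini-Hochberg adjustment, the difference of differences was 7.63 ± 0.17 for Eif2s3y (adjusted p = 3.79e-08), 7.06 ± 0.17 for Ddx3y, 4.27 ± 0.19 for Uty and 3.68 ± 0.20 for Kdm5d, all Y-linked. In these 4 genes the arrangement of the libraries by Y-linked transcripts and the groups cannot be told apart. For the melanocyte gene Tyrp1 it was -3.17 ± 0.19 (adjusted p = 5.93e-05), for Asprv1 1.40 ± 0.18 (adjusted p = 0.0408) and for the predicted gene Gm38495 2.55 ± 0.33 (adjusted p = 0.0408). The same holds for Tyrp1, Asprv1 and Gm38495. For every gene this test sets the libraries with Y-linked transcripts (dKO SNI and WT sham) against the others, so dependence on surgery and the Y-linked split cannot be told apart.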

How the results depend on the processing

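The count of 3106 genes called in dKO SNI against WT SNI was 1892 without a filter on low values, and 10 to 3083 when 1 library was left out, with the lowest counts without WT SNI 1 (10) and dKO SNI 2 (11). Leaving out a sham library gave 2336 to 3083, and the injured libraries alone gave 2195. The count with a change of at least 1 (548) was 884 with a pseudocount of 0.1, 364 among genes with a mean of at least 5 FPKM, 96 when the genotype difference was averaged over both surgeries, and 10 to 933 with 1 library left out. The sham contrast (20) gave 55 with the smaller pseudocount, 6 without the filter, 47 with a replicate block and 11 to 31 with 1 library left out. The interaction (7) gave 3 among genes with a mean of at least 5 FPKM, 12 with the replicate block and 5 to 20 with 1 library left out. The cause of these moves was not tested. Higher genes made up 44.2% of the calls, 31.5% among genes with a mean of at least 5 FPKM, 37.1% with totals without ribosomal and erythroid genes, 38.9% with the smaller pseudocount, 49.5% with the injured libraries alone and 53.1% in the averaged difference.

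Deviations of same-numbered libraries correlated at -0.188 to 0.254 between groups, with the highest value between dKO SNI and WT SNI. Whether same-numbered libraries belong together was not tested. With the replicate block 3022 genes were called in dKO SNI against WT SNI, 1411 higher and 1611 lower. Of 185 named genes, 167 were called, and 115 of these kept their call under every alternative other than leaving out a library or averaging the surgeries. Directions turned for Cd2 without WT SNI 1 (-0.025, and up to 0.43 with another library left out), and in the averaged difference for Cckbr (0.028), Tyrp1 (0.78) and Kdm5c (0.042). Of the 3106 calls, 2297 were called with the same sign in the averaged difference. The averaged difference contains the axotomy contrast itself, so this agreement is partly built in. Without the filter the calls among 52 ribosomal protein genes were 9 instead of 40, and among interferon genes 11 instead of 25. The unknown depth limits what can be said of genes near 1 FPKM.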

Other observations

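Some entries of the platelet and mast cell lists differed between the injured groups as well, in both directions. Bulk values do not show which cells held these transcripts. Clec1b and Gfi1b, of platelets and their precursors, measured 1.22 and 1.04 FPKM in the dKO SNI pair, against 0.368 and 0.126 FPKM in the WT SNI pair, and 2.42 and 1.5 FPKM in the dKO SNI pair, against 0.136 and 0.608 FPKM in the WT SNI pair. F2r, entered in the same platelet list but not shown here to come from platelets, was called lower, with changes from -0.76 to -0.28 over the alternatives. Hdc, the histamine-forming enzyme of mast cells and basophils, changed by 1.22 ± 0.23 (limma adjusted p = 0.0116), while Kit, a receptor of mast cells and melanocytes, changed by -0.56 ± 0.16 (adjusted p = 0.0360). Calls also varied with level: among the 3744 tested genes with a mean of 10 to 50 FPKM, 20.4% were lower and 8.63% higher, whereas among the 2050 genes under 2 FPKM, 6.54% were lower and 10.7% higher.

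Of the remaining lists, 2 of 10 tested platelet markers, 2 of 7 mast cell markers, 1 of 7 bone cell markers, 1 of 7 adipocyte markers and 3 of 10 melanocyte and meningeal markers were higher, and 1 each of the platelet, mast cell and melanocyte lists was lower. Over all genes, 10.7% were higher and 13.4% lower, and these lists are too short to set apart from those shares. Of 5 tested X-linked genes with a Y-linked partner 1 was lower, Eif2s3x. None of 4 central glia markers was called by limma, and 0 had an unadjusted p under 0.05.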
